A study of Homo sapiens with 10 samples.

Results

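The 10 genes described here belong to the response to transforming growth factor beta (TGF-beta) and bone morphogenetic protein (BMP): the receptor genes TGFBR1 and TGFBR2, the feedback inhibitors SMAD6, SMAD7 and PMEPA1, the corepressors SKI and SKIL, and the inhibitors of DNA binding ID1, ID2 and ID3. They were taken by gene symbol, and all 10 were found among the 57993 symbols of the deposited tables and among the 17779 genes that passed the filter on low values. RNA had been measured in 10 libraries of HCT116, an established human colorectal carcinoma line of epithelial origin. KDM5A is a histone demethylase, and the study's title concerns its methylation by SMYD2. All cells were collected 24 h after transfection, as GFP-positive sorted cells. Of the KDM5A-/- knockout cells, 3 libraries carried empty vector, 3 expressed wild-type KDM5A from a plasmid and 2 expressed a mutant KDM5A whose mutation is unnamed in the labels. The remaining 2 libraries were parental HCT116 cells given the same empty vector. By the labels, G418 was in the medium of the knockout cells and not of the parental cells, so genotype, clonal origin and drug cannot be told apart between those groups. Whether replicate libraries derive from independent cultures is not stated, so the p-values below measure only the spread between libraries, which may be technical.

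TGF-beta ligands bind the receptor kinase pair TGFBR2 and TGFBR1, which phosphorylates SMAD2 and SMAD3, whereas BMP ligands act through related receptors on SMAD1 and SMAD5. The SMADs of both arms join SMAD4, act in the nucleus and switch on their own brakes. SMAD7 targets the receptors, SMAD6 mainly blocks the BMP arm, and PMEPA1 takes up receptor-activated SMADs and recruits ubiquitin ligases. SKI and SKIL bind SMAD complexes and hold them in a repressed state. ID1, ID2 and ID3 are classical BMP targets whose proteins bind E proteins and keep them from DNA. HCT116 is a mismatch-repair-deficient line that is known to carry frameshift mutations in the coding sequence of TGFBR2, and an RNA level says nothing about whether its product works.

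The levels below are the deposited values, labelled FPKM (fragments per kilobase of transcript, relative to the library total), brought to the linear scale and scaled between libraries, called scaled FPKM. Differences and standard errors (SE) are on the log2(scaled FPKM + 1) scale, which understates the change of low genes, and adjusted p-values come from limma with Benjamini-Hochberg adjustment over all 17779 genes, with 0.05 as the threshold. In knockout cells, wild-type KDM5A against empty vector changed 5 of the 10 genes: PMEPA1, SKIL, ID1 and ID3 fell and SKI rose, where 4.54% of all genes passed (2.52% higher and 2.02% lower). Without any 1 of the 3 empty-vector libraries or of wild-type libraries 1 and 2 the 5 genes came to 1, without wild-type library 3 they came to 3, and the genes called over all came from 807 to between 178 and 311. Mutant KDM5A against empty vector changed 6 of 10, all lower (PMEPA1, SMAD7, SKIL, TGFBR2, ID1 and ID3), where 16.5% of all genes passed (9.48% higher and 7.05% lower). These 6 came to 4 without empty-vector library 1, to 3 without any 1 of empty-vector libraries 2 and 3 and mutant library 2, and to 2 without mutant library 1. Between mutant and wild-type KDM5A, 0 of 10 passed, where 0.0562% of all genes did (0.0337% higher and 0.0225% lower). Parental against knockout cells, both with empty vector, differed in 6 of 10, with ID1, ID2 and ID3 higher in the parental cells and SMAD7, SKIL and TGFBR2 lower, where 8.94% of all genes passed (4.09% higher and 4.84% lower). Knockout cells with wild-type KDM5A differed from parental cells in 5 of 10, with SMAD6, ID1, ID2 and ID3 lower and SKI higher, where 14.5% of all genes passed (8.03% higher and 6.52% lower). The same 3 empty-vector knockout libraries are the control of 3 of these comparisons, so the comparisons are not independent of one another. The median difference over the 10 genes was -0.36 for wild-type KDM5A and -0.36 for mutant KDM5A, each against empty vector. Between mutant and wild-type KDM5A it was -0.03. It was -0.08 for parental against knockout cells and -0.24 for wild-type KDM5A against parental cells, beside medians over all genes tested between -0.0071 and 0.00074.

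**Figure D1:**
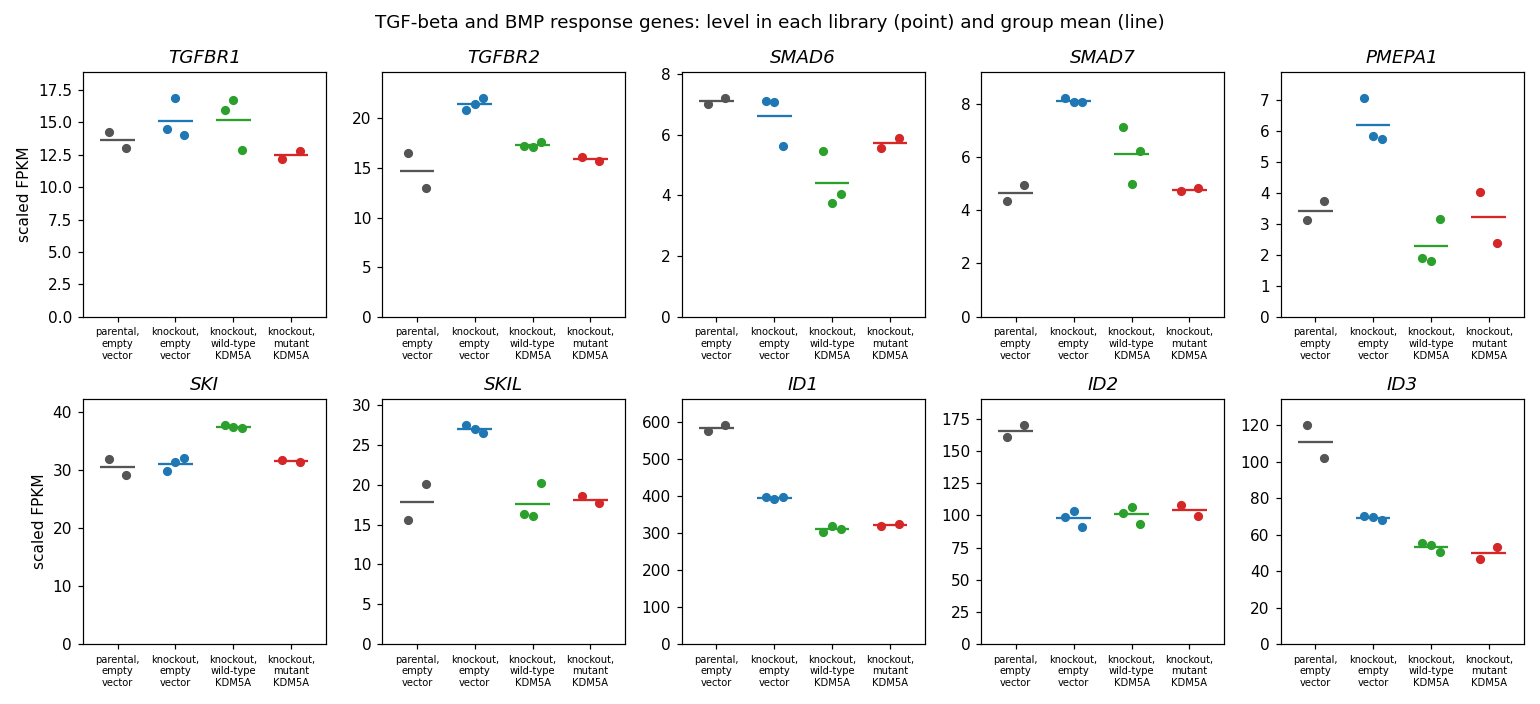
Scaled FPKM (vertical axes, each from 0) of the 10 genes in the 10 libraries; each point is 1 library, each line a group mean, and the groups are parental cells with empty vector and knockout cells with empty vector, wild-type KDM5A or mutant KDM5A. The 3 empty-vector knockout libraries lie above all 7 others for TGFBR2, SMAD7, PMEPA1 and SKIL, and the 2 parental libraries lie above all 8 others for ID1, ID2 and ID3.

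Across the series, KDM5A itself was at 12.2, 15.3 and 12.3 scaled FPKM in the empty-vector knockout libraries and at 13.3 and 17.7 in the parental ones, so its RNA total did not separate knockout from parental cells (difference 0.20, limma adjusted p = 0.391), and no value here checks the deletion. It was at 13453 to 16237 with wild-type KDM5A and at 23346 and 22816 with the mutant, a difference between plasmids of 0.62 that missed the threshold (limma adjusted p = 0.0926). Ribosomal protein genes made up 15.6% and 16.1% of the total in the mutant libraries and 16.2% in parental library 2, against 12.7% to 14.0% in the other 7 libraries. The smaller part of the total from protein-coding genes (90.4% to 91.0%, against 92.7% to 93.1%) set the same 3 libraries apart. Mutant KDM5A and this shift cannot be told apart, and differences with the ribosomal share in the model stand beside those results of the 10 genes that lost their call under it. Of 10 epithelial and colorectal markers, 7 or 8 reached 1 scaled FPKM in a group (summed level 3930 to 5740), with CDX1 under 0.1 in every library. Of 7 fibroblast markers only COL1A1 reached 1 (summed level 13.7 to 28.9; DCN, LUM and PDGFRA under 0.1 in every library). Of 5 immune markers 1 reached 1 (summed level 1.30 to 2.27 in empty-vector knockout, 4.27 to 5.29 with wild-type KDM5A, 5.00 to 7.10 with mutant KDM5A and 1.92 to 2.35 in parental libraries; CD3E under 0.1 in every library), and its part in the results was not tested. Of 4 endothelial markers, at most 1 reached 1 (summed level 0.466 to 1.42).

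Because FPKM values are per length, the 10 genes can be ranked by level. In empty-vector knockout cells the order of mean scaled FPKM was ID1 (395), ID2 (97.7), ID3 (69.3), SKI (31.1), SKIL (27.0), TGFBR2 (21.5), TGFBR1 (15.1), SMAD7 (8.11), SMAD6 (6.60) and PMEPA1 (6.21). ID1 thus lay above 98.4% of the genes tested and PMEPA1 above 37.9%. Within that order only the neighbours SMAD6 and PMEPA1 overlapped between libraries. The first 7 places were the same in all 4 groups, while SMAD6 stood above SMAD7 in the mutant and parental libraries and below it in the other groups. In bulk RNA, a lower level in every cell and fewer cells with the transcript cannot be told apart.

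The windows just before the RefSeq start sites are shown first for SMAD6, which holds the full SMAD palindrome. With it stand the genes whose empty-vector knockout libraries all lay above every other library, though their calls differed by comparison. RefSeq windows (GRCh38.p14) matched 9 of the 10 genes, and where a gene had several, the one nearest the deposited gene start was used. Each window holds the 250 bases before the start, 5′ to 3′ on the gene's strand, and positions count back from the start, with -1 just before it. Capitals mark matches to 4 motifs searched on both strands, whose letters are given with their positions after the sequences: the SMAD palindrome, the short SMAD box, the GC-rich SMAD site and the TATA box. SMAD6, SMAD7, PMEPA1, SKIL and TGFBR2 come first, from chr15:66701986-66702235 (+ strand), chr18:48950966-48951215 (- strand), chr20:57711473-57711722 (- strand), chr3:170357465-170357714 (+ strand) and chr3:30606351-30606600 (+ strand).
SMAD6: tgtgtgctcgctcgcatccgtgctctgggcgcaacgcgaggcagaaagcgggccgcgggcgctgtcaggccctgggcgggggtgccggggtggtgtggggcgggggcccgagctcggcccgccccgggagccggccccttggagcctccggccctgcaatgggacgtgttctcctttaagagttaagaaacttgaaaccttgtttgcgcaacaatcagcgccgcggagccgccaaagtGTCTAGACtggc
SMAD7: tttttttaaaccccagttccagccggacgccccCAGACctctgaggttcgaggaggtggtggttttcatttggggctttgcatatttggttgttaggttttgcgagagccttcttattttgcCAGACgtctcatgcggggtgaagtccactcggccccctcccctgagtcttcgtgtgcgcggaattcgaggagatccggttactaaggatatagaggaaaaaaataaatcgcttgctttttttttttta
PMEPA1: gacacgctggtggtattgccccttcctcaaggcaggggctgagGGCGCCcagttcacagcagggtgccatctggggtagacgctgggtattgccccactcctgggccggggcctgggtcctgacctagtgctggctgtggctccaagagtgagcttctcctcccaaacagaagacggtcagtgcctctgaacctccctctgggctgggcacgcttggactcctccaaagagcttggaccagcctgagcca
SKIL: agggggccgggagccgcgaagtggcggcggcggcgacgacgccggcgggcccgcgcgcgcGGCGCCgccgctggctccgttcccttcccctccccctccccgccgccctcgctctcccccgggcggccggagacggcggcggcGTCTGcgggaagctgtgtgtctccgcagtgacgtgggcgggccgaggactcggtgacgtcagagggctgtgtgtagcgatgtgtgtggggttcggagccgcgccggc
TGFBR2: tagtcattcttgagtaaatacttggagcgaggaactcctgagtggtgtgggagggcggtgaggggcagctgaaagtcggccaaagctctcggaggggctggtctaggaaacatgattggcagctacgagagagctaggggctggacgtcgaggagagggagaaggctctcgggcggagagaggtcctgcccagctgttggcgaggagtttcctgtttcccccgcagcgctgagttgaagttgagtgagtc
The SMAD palindrome, GTCTAGAC, lies at -12 to -5 in SMAD6, a match that 64 of 35116 RefSeq windows of this length hold (0.182%). The short SMAD box, CAGAC, does not occur inside the palindrome. SMAD7 has it at -217 to -213 and at -128 to -124, and SKIL has it on the other strand at -107 to -103, as do 38.0% of windows on either strand. The GC-rich SMAD site, GGCGCC, lies at -207 to -202 in PMEPA1 and at -190 to -185 in SKIL, and 16.4% of windows hold it. None of the 4 motifs occurs in the TGFBR2 window, which says nothing about any factor. The ID1 and ID3 windows, from chr20:31605039-31605288 (+ strand) and chr1:23559502-23559751 (- strand), follow as those of the pair whose levels moved most alike.
ID1: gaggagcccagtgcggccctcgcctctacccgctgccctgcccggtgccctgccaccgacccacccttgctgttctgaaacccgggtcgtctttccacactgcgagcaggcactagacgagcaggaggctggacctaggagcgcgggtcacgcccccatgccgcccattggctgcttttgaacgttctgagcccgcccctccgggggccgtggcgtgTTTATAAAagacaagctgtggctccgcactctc
ID3: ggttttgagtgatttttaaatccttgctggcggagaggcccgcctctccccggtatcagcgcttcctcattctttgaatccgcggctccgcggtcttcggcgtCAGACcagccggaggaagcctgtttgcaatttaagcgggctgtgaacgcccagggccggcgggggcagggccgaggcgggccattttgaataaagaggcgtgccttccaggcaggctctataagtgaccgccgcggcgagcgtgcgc
The TATA box, TATAAA, lies in ID1 on the + strand at -31 to -26 and on the other strand at -33 to -28, overlapping each other, where 10.7% of windows hold a match. ID3 has the short SMAD box at -147 to -143. The windows of TGFBR1, which passed in no comparison, and ID2 are not shown. TGFBR1 has the short SMAD box on the other strand at -16 to -12, and ID2 holds none of the motifs searched. The starts used for SMAD7, ID3 and ID2 lie 254, 293 and 3211 bases from the deposited gene starts. A match is a description of the letters and not evidence of binding.

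The receptor genes differed from each other in how they varied. TGFBR2 (ENSG00000163513, chr3:30606502-30694142 on GRCh38, + strand) encodes the type II receptor that binds the ligand. It was at 20.9, 21.4 and 22.0 scaled FPKM with empty vector in knockout cells, at 17.2, 17.1 and 17.6 with wild-type KDM5A, at 16.1 and 15.7 with mutant KDM5A, and at 16.5 and 13.0 in parental cells. All 3 empty-vector knockout libraries lay above the 7 others, and the lowest single value was parental library 2. TGFBR2 fell with mutant KDM5A (-0.41, SE 0.095; limma adjusted p = 0.0213) and was lower in parental than in knockout cells (-0.52, SE 0.095; limma adjusted p = 0.0121). With wild-type KDM5A the difference from empty vector was -0.29 (SE 0.085; limma adjusted p = 0.0899), which missed the threshold although the groups did not overlap. The mutant call was lost without any 1 of empty-vector libraries 2 and 3 and mutant libraries 1 and 2 (highest adjusted p = 0.0771), and the parental call without parental library 2 (0.0546). With the ribosomal share in the model the mutant difference was -0.064 (adjusted p = 0.917) and the parental difference -0.27 (0.338).

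TGFBR1 (ENSG00000106799, chr9:99104038-99154192, + strand), the type I receptor kinase that phosphorylates SMADs, passed in 0 of the 5 comparisons. Its levels were 14.4, 16.9 and 14.0 with empty vector, 16.0, 16.7 and 12.9 with wild-type KDM5A, 12.2 and 12.8 with mutant KDM5A, and 14.3 and 13.0 in parental cells. The mutant libraries were below all libraries with empty vector or wild-type KDM5A in knockout cells, by -0.25 (95% interval -0.53 to 0.03; limma adjusted p = 0.197) and -0.26 (-0.54 to 0.02; limma adjusted p = 0.284). Wild-type KDM5A and empty vector differed by 0.0045, with an interval from -0.25 to 0.26.

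PMEPA1 (ENSG00000124225, chr20:57648392-57711536, - strand), a membrane protein that traps receptor-activated SMADs, had the biggest difference among the 10 genes in knockout cells. It was at 7.06, 5.83 and 5.73 scaled FPKM with empty vector, at 1.90, 1.80 and 3.16 with wild-type KDM5A, at 4.05 and 2.37 with mutant KDM5A, and at 3.12 and 3.73 in parental cells. Every empty-vector knockout library was above every other library, and the wild-type, mutant and parental groups overlapped one another. With wild-type KDM5A the mean was 0.368 times that with empty vector (-1.15, SE 0.20; limma adjusted p = 0.0186), and with mutant KDM5A it was 0.517 times (-0.80, SE 0.23; limma adjusted p = 0.044). Parental cells were at 0.552 times the knockout level, a difference that missed the threshold (-0.70, SE 0.23; limma adjusted p = 0.0934).
The wild-type call was lost without any 1 of the 3 empty-vector libraries or wild-type libraries 1 and 2 (highest adjusted p = 0.0801), and the mutant call without any 1 of the empty-vector libraries or mutant library 2 (-0.51 and 0.198 without the latter), with the ribosomal share in the model (-0.95 and 0.532), after quantile normalization (0.0641) and with a pseudocount of 0.1 (0.0539). An antisense gene, NKILA, shares 343 exonic bases with PMEPA1 (6.1% of its exonic length) and was at 0 to 0.224 scaled FPKM, and the strand setting of the counting is not given in the sources used here.

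SMAD7 (ENSG00000101665, chr18:48919853-48950711, - strand), the inhibitory SMAD of both arms, was nearly the same in the 3 empty-vector knockout libraries, at 8.20, 8.06 and 8.07 scaled FPKM. It was at 7.13, 4.97 and 6.22 with wild-type KDM5A, at 4.70 and 4.83 with mutant KDM5A, and at 4.35 and 4.95 in parental cells. All wild-type libraries were below all empty-vector ones, and both mutant and both parental libraries were below all wild-type ones. SMAD7 fell with mutant KDM5A to 0.588 times the empty-vector level (-0.66, SE 0.14; limma adjusted p = 0.015) and was at 0.574 times the knockout level in parental cells (-0.69, SE 0.14; limma adjusted p = 0.0179). With wild-type KDM5A the difference was -0.37 (SE 0.12; limma adjusted p = 0.133), and between mutant and wild-type KDM5A it was -0.29 (95% interval -0.60 to 0.02; limma adjusted p = 0.278). The mutant call was lost without mutant library 1 (adjusted p = 0.0688), and the parental call without any 1 of the 5 libraries compared (highest 0.0642). With the ribosomal share in the model neither passed, while the differences were as large, at -0.72 for the mutant (adjusted p = 0.423) and -0.73 for the parental comparison (0.221).

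SMAD6 (ENSG00000137834, chr15:66702228-66782848, + strand), the inhibitor of the BMP arm, followed another order. It was at 7.11, 7.07 and 5.63 scaled FPKM with empty vector in knockout cells, at 5.45, 3.76 and 4.06 with wild-type KDM5A, at 5.55 and 5.90 with mutant KDM5A, and at 7.01 and 7.21 in parental cells. The 3 wild-type libraries were the lowest of all 10, and the parental libraries overlapped the empty-vector knockout ones. SMAD6 was lower with wild-type KDM5A than in parental cells, at 0.622 times (-0.59, SE 0.16; limma adjusted p = 0.0353). Against empty vector the wild-type difference was -0.49 (SE 0.14; limma adjusted p = 0.084), and mutant against wild-type KDM5A differed by 0.32 (95% interval -0.03 to 0.68; limma adjusted p = 0.284). The call against parental cells was lost without any 1 of wild-type libraries 2 and 3 and the parental libraries (highest adjusted p = 0.135), with the ribosomal share in the model (-0.64 and 0.191) and after quantile normalization (0.0697).

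The corepressor genes went opposite ways with wild-type KDM5A. SKIL (ENSG00000136603, chr3:170357678-170396835, + strand), which encodes the SnoN protein, was at 27.5, 27.0 and 26.5 scaled FPKM with empty vector in knockout cells, at 16.3, 16.1 and 20.2 with wild-type KDM5A, at 18.6 and 17.7 with mutant KDM5A, and at 15.6 and 20.1 in parental cells. The empty-vector knockout libraries stood clear of the 7 others, which overlapped across their groups. SKIL fell to 0.650 times with wild-type KDM5A (-0.60, SE 0.11; limma adjusted p = 0.0209) and to 0.673 times with mutant KDM5A (-0.55, SE 0.12; limma adjusted p = 0.0192). In parental cells it was at 0.661 times the knockout level (-0.58, SE 0.12; limma adjusted p = 0.0224), and wild-type KDM5A and parental cells differed by -0.02 (95% interval -0.30 to 0.26; limma adjusted p = 0.941). The wild-type call was lost without any 1 of the 3 empty-vector libraries or wild-type libraries 1 and 2 (highest adjusted p = 0.0888), the mutant call without any 1 of its 5 libraries (0.0697), and the parental call without any 1 of the empty-vector libraries or parental library 1 (0.0832). With the ribosomal share in the model the differences were larger and did not pass, at -0.90 for the mutant (adjusted p = 0.25) and -0.84 for the parental comparison (0.0903).

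SKI (ENSG00000157933, chr1:2228695-2310119, + strand), the founding member of the same corepressor family, was at 29.7, 31.3 and 32.1 scaled FPKM with empty vector in knockout cells, at 37.7, 37.4 and 37.2 with wild-type KDM5A, at 31.6 and 31.3 with mutant KDM5A, and at 31.8 and 29.1 in parental cells. The 3 wild-type libraries lay close together and above the 7 others, which overlapped. SKI rose with wild-type KDM5A to 1.21 times the empty-vector level (0.26, SE 0.056; limma adjusted p = 0.0362) and was at 1.23 times the parental level (0.29, SE 0.063; limma adjusted p = 0.0165). Mutant against empty vector differed by 0.02 (95% interval -0.12 to 0.16; limma adjusted p = 0.867). Between mutant and wild-type KDM5A the difference was -0.24 (95% interval -0.39 to -0.10), the only one of the 10 genes in that comparison with an unadjusted p under 0.05 (0.00378; limma adjusted p = 0.101). The rise with wild-type KDM5A was lost without any 1 of the 6 libraries compared (highest adjusted p = 0.12), and the call against parental cells without any 1 of the wild-type libraries or parental library 2 (0.0943) and with the ribosomal share in the model (0.19 and 0.242). On the values as deposited, without scaling between libraries, the adjusted p was 0.36 against empty vector, 0.117 against parental cells and 0.0392 for mutant against wild-type KDM5A.

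The 3 ID genes were the most abundant of the set and the ones whose difference between parental and knockout cells passed whichever library was left out. ID1 (ENSG00000125968, chr20:31605283-31606515, + strand), a direct BMP target, was at 397, 392 and 396 scaled FPKM with empty vector in knockout cells, at 302, 318 and 312 with wild-type KDM5A, at 318 and 324 with mutant KDM5A, and at 575 and 591 in parental cells. Parental, empty-vector knockout and KDM5A-transfected libraries formed separate levels in descending order, and the wild-type and mutant libraries overlapped. Parental cells had 1.48 times the knockout level (0.56, SE 0.045; limma adjusted p = 0.000356). ID1 fell with wild-type KDM5A to 0.787 times (-0.34, SE 0.040; limma adjusted p = 0.00361) and with mutant KDM5A to 0.813 times (-0.30, SE 0.045; limma adjusted p = 0.00581). With wild-type KDM5A it was at 0.533 times the parental level (-0.91, SE 0.045; limma adjusted p = 1.24e-05). All 4 calls passed without any 1 library, with 0.0291 as the highest adjusted p, and the mutant call was lost with the ribosomal share in the model (-0.37 and 0.211).

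ID3 (ENSG00000117318, chr1:23557918-23559794, - strand), another BMP target, was at 70.2, 69.9 and 67.8 scaled FPKM with empty vector in knockout cells, at 55.5, 54.3 and 50.4 with wild-type KDM5A, at 46.4 and 53.3 with mutant KDM5A, and at 120 and 102 in parental cells. As for ID1, parental libraries were highest and empty-vector knockout libraries next, with overlap only between the wild-type and mutant libraries below them. Parental cells had 1.60 times the knockout level (0.67, SE 0.086; limma adjusted p = 0.0028). ID3 fell with wild-type KDM5A to 0.770 times (-0.37, SE 0.077; limma adjusted p = 0.0323) and with mutant KDM5A to 0.720 times (-0.47, SE 0.086; limma adjusted p = 0.00997), and with wild-type KDM5A it was at 0.482 times the parental level (-1.04, SE 0.086; limma adjusted p = 0.000207). The fall with wild-type KDM5A was lost without any 1 of the 6 libraries compared (highest adjusted p = 0.118), and the fall with mutant KDM5A without mutant library 1 (0.0605) and with the ribosomal share in the model (-0.27 and 0.586).

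ID2 (ENSG00000115738, chr2:8678845-8684453, + strand) shared the parental difference but not the fall with wild-type and mutant KDM5A against empty vector. It was at 98.5, 103 and 91.2 scaled FPKM with empty vector in knockout cells, at 102, 107 and 93.2 with wild-type KDM5A, at 108 and 99.6 with mutant KDM5A, and at 161 and 170 in parental cells. The 8 knockout libraries overlapped across their 3 groups, and both parental libraries were above them. Parental cells had 1.69 times the knockout level (0.75, SE 0.077; limma adjusted p = 0.00116), and wild-type KDM5A cells were at 0.609 times the parental level (-0.71, SE 0.077; limma adjusted p = 0.000788). Against empty vector the difference was 0.04 with wild-type KDM5A (95% interval -0.11 to 0.20; limma adjusted p = 0.784) and 0.09 with mutant KDM5A (-0.09 to 0.26; limma adjusted p = 0.467). With the ribosomal share in the model the parental call of ID2 was lost (0.73, adjusted p = 0.0644). On the values as deposited ID2 was lower with mutant KDM5A than with empty vector, by -0.25 (adjusted p = 0.0437). The antisense gene ID2-AS1, at 0.774 to 2.97 scaled FPKM, shares 38 exonic bases with ID2 (1.72% of its exonic length).

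Mutant against wild-type KDM5A thus passed for none of the 10 genes in limma, with 1 at an unadjusted p under 0.05 (SKI), where 3583 of the 17779 genes tested had such a p and 10 passed. The intervals of the other 9 differences included 0, and the widest was that of PMEPA1, whose difference was 0.35 (95% interval -0.16 to 0.87; limma adjusted p = 0.42). The narrowest was that of ID1 (0.05, 95% interval -0.06 to 0.15). The differences of SKIL (0.05, 95% interval -0.23 to 0.33), ID2 (0.05, -0.13 to 0.22), ID3 (-0.10, -0.29 to 0.10) and TGFBR2 (-0.12, -0.33 to 0.10) lay between these in width.

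**Figure D2:**
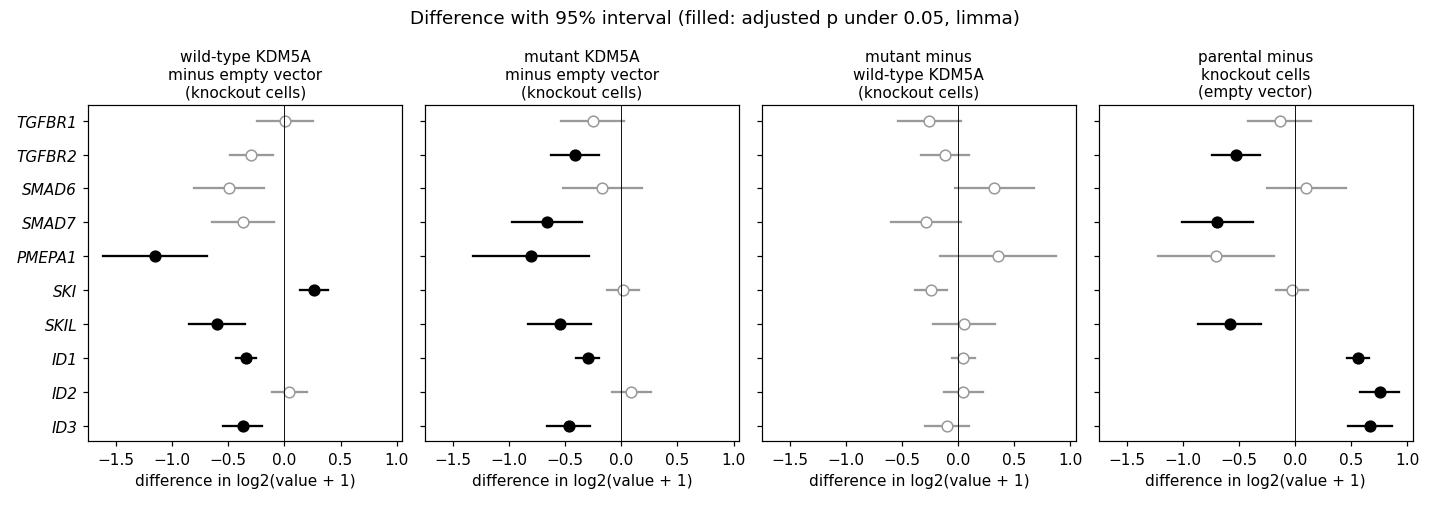
Differences between groups for the 10 genes on the log2(scaled FPKM + 1) scale (horizontal axes), in 4 comparisons; points are limma estimates, bars 95% intervals, and filled points passed at an adjusted p under 0.05. With wild-type KDM5A, PMEPA1 lies furthest from 0 at -1.15 and SKI lies to the right at 0.26; in the parental comparison ID1, ID2 and ID3 lie to the right, between 0.56 and 0.75.

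The ligand, receptor and SMAD genes around the 10 were read from 9 lists that hold 81 genes passing the filter. With wild-type KDM5A, 2 of the 81 rose and 3 fell against empty vector, 6.17% of the listed genes beside 4.54% of all genes. With mutant KDM5A 3 rose and 9 fell, 14.8% beside 16.5%. Between mutant and wild-type KDM5A 0 passed in limma. An unadjusted p under 0.05 was found for 20 of the 81, beside 3583 of all 17779 genes. In parental against knockout cells 6 were higher and 7 lower, 16.0% beside 8.94%, and in wild-type KDM5A against parental cells 8 were higher and 12 lower, 24.7% beside 14.5%. With the ribosomal share in the model, 0 of the 12 mutant calls in these lists passed (adjusted p from 0.274 to 0.987). In the other comparisons the calls that passed were 1 of the 13 parental calls, 4 of the 20 calls of wild-type KDM5A against parental cells and 4 of the 5 calls of wild-type KDM5A against empty vector.

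Among 9 ligand and latency genes of the TGF-beta and activin group, 0 passed with wild-type KDM5A. LTBP3, a latent TGF-beta binding protein of the matrix, fell with mutant KDM5A from 180 ± 5.25 (SD, n = 3) to 134 ± 10.3 (SD, n = 2) scaled FPKM (-0.42; limma adjusted p = 0.0198), a difference of -0.13 with the ribosomal share in the model. Its relatives went both ways in parental cells, with LTBP4 higher (172 ± 5.12, n = 2, against 136 ± 11.8, n = 3; limma adjusted p = 0.0317) and LTBP2 lower (2.73 ± 0.639, a difference of -0.92; limma adjusted p = 0.00876). The LTBP4 call passed under 5 of 14 alternatives and the LTBP2 call under 10 of 14. Of 5 BMP and GDF ligands, BMP4 was lower with wild-type and with mutant KDM5A than with empty vector. It was at 137 ± 0.463 (SD, n = 3) with empty vector, 113 ± 3.13 (n = 3) with wild-type KDM5A (-0.27; limma adjusted p = 0.0145) and 109 ± 3.58 (n = 2) with mutant KDM5A (-0.33; limma adjusted p = 0.00599). The wild-type call of BMP4 was lost without any 1 of the libraries compared (highest limma adjusted p = 0.0712) and passed under 9 of 16 alternatives. Its mutant call was lost with the ribosomal share in the model (-0.27; limma adjusted p = 0.379). BMP8A was higher in parental than in knockout cells (4.73 ± 0.248 against 3.14 ± 0.176; limma adjusted p = 0.0489), a call that passed under 1 of 13 alternatives.

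Of 11 other receptor and coreceptor genes, ACVR2A passed, an activin and BMP type II receptor. It was at 4.62 ± 0.496 (SD, n = 3) scaled FPKM in empty-vector knockout cells and 8.78 ± 0.245 (n = 2) in parental cells (0.80; limma adjusted p = 0.0083), and was at 4.97 ± 0.690 (n = 3) with wild-type KDM5A. Of 6 receptor-activated and common SMADs, SMAD4, the common partner, fell with wild-type and with mutant KDM5A against empty vector. It went from 73.0 ± 1.57 (SD, n = 3) with empty vector to 59.2 ± 5.54 (n = 3) with wild-type KDM5A (limma adjusted p = 0.0462) and 53.0 ± 0.741 (n = 2) with mutant KDM5A (limma adjusted p = 0.00834), and parental cells were at 69.1 ± 3.98 (n = 2; limma adjusted p = 0.586 against knockout cells). The mutant difference of SMAD4 went from -0.45 to -0.27 with the ribosomal share in the model (adjusted p = 0.551), and its wild-type call passed under 7 of 16 alternatives.

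A list of 16 genes held SMAD ubiquitin ligases, corepressors and other regulators of SMADs or receptors. Among them SMURF2, a ubiquitin ligase that works with SMAD7, was lower in parental than in knockout cells (130 ± 1.11 against 171 ± 4.28 scaled FPKM; limma adjusted p = 0.00237). LDLRAD4, a relative of PMEPA1, was low throughout and fell from 1.43 ± 0.307 (n = 3) to 0.369 ± 0.101 (n = 2) with mutant KDM5A (limma adjusted p = 0.0309), while parental cells were at 0.364 ± 0.0221 (n = 2; limma adjusted p = 0.0441), and each of these calls passed under 2 of 13 alternatives. FKBP1A and STRAP passed as higher with mutant KDM5A (0.27 and 0.17; limma adjusted p = 0.0361 and 0.0425), and both were lower on the values as deposited and after quantile normalization, with 3 of 14 and 4 of 14 alternatives passed. TGIF1 was lower and SMURF2 and WWP2 were higher with wild-type KDM5A than in parental cells. Among 7 extracellular antagonists, FSTL3, which binds activin, was lower with mutant KDM5A (41.6 ± 4.23 against 56.0 ± 1.60; limma adjusted p = 0.0344) and in parental cells (40.3 ± 8.36; limma adjusted p = 0.0333). Its mutant difference of -0.42 was -0.32 without mutant library 1 (adjusted p = 0.182) and -0.015 with the ribosomal share in the model (0.987). Its parental difference of -0.48 was -0.27 without parental library 2 (0.141), and the call passed under 5 of 14 alternatives. CHRD, which binds BMPs, was higher in parental than in knockout cells (11.2 ± 1.15 against 6.33 ± 0.374; limma adjusted p = 0.0237), a call that passed under 6 of 14 alternatives. It was lost without any 1 of the empty-vector libraries (highest limma adjusted p = 0.0753), without a filter (0.0942) and with the ribosomal share in the model (0.24). BMPER passed with mutant KDM5A (1.37; limma adjusted p = 0.0494), but its 2 mutant libraries were at 4.36 and 1.26 against 0.379 ± 0.385 (SD, n = 3). The difference was 0.75 without mutant library 1 (adjusted p = 0.282), and the call passed under 3 of 13 alternatives.

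Of the 17 other TGF-beta target genes reported, 2 rose and 1 fell with wild-type KDM5A (4.54% of all genes passed), 4 fell with mutant KDM5A (16.5%), and 3 were lower in parental than in knockout cells (8.94%). CYR61, a matrix-associated signalling protein, rose with wild-type KDM5A from 102 ± 0.347 to 124 ± 2.08 (limma adjusted p = 0.0122) and was at 57.6 ± 1.13 in parental cells (-0.81; limma adjusted p = 9.29e-05). Its relative CTGF passed as lower in parental cells (18.7 ± 1.58 against 25.1 ± 1.14, limma adjusted p = 0.0142), a call that passed under 9 of 14 alternatives. With wild-type KDM5A, CDKN1A also rose (0.33; limma adjusted p = 0.0354), which was 0.22 on the values as deposited (adjusted p = 0.251) and 0.20 after quantile normalization (0.28). CYR61 was at 0.17 in that comparison on the values as deposited (from 0.28, limma adjusted p = 0.193), and KLF10 fell (limma adjusted p = 0.0114). The CDKN1A call was lost without any 1 of the libraries compared (highest limma adjusted p = 0.119). That of CYR61 was lost without any 1 of empty-vector libraries 2 and 3 and the wild-type libraries (highest limma adjusted p = 0.0672). These calls passed under 6 of 16 alternatives for CDKN1A, 9 of 16 for CYR61 and 12 of 16 for KLF10. With mutant KDM5A, COL1A1, VEGFA, JUNB and BHLHE40 passed as lower, and with the ribosomal share in the model none of the 4 did. COL1A1 went from -0.70 to -0.066 there (adjusted p = 0.972) and passed under 4 of 14 alternatives. JUNB, at -0.31, was -0.21 without mutant library 1 (adjusted p = 0.163) and passed under 6 of 14, and VEGFA under 7 of 14. BHLHE40 passed under 13 of 14 alternatives, the exception being the ribosomal share (-0.23; adjusted p = 0.392), and was also lower in parental cells (88.1 ± 0.975 against 116 ± 2.61; limma adjusted p = 0.00194). Against parental cells, wild-type KDM5A cells were higher for BHLHE40, CTGF, CDKN2B and CYR61 and lower for FN1, VEGFA and KLF10. The FN1 call passed under 5 of 13 alternatives, that of VEGFA under 5 of 14, KLF10 under 6 of 14 and CDKN2B under 8 of 14. The BHLHE40 call passed under 12 of 14, and those of CTGF and CYR61 under 14 of 14. Without parental library 2, VEGFA was at -0.19 (from -0.29), KLF10 at -0.14 (from -0.21) and CDKN2B at 0.62 (from 0.77).

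Of the 7 other BMP target genes reported, the homeobox gene MSX1 and the zinc finger gene ZNF503 were higher in parental than in knockout cells. The rest of the 7 did not pass there, and 4.09% of all genes passed as higher. MSX1 was at 73.2 ± 1.70 against 58.1 ± 1.88 (limma adjusted p = 0.0178) and ZNF503 at 30.6 ± 3.84 against 19.0 ± 0.625 (limma adjusted p = 0.00634). The MSX1 call passed under 7 of 14 alternatives and the ZNF503 call under 13 of 14. Of 3 partner genes of ID proteins, HES1 passed, at 14.4 ± 1.23 (n = 3) with wild-type KDM5A against 20.8 ± 0.933 (n = 2) in parental cells (limma adjusted p = 0.0117). Of the 50 calls of these listed genes over all comparisons, 5 passed under every alternative tried.

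**Figure D3:**
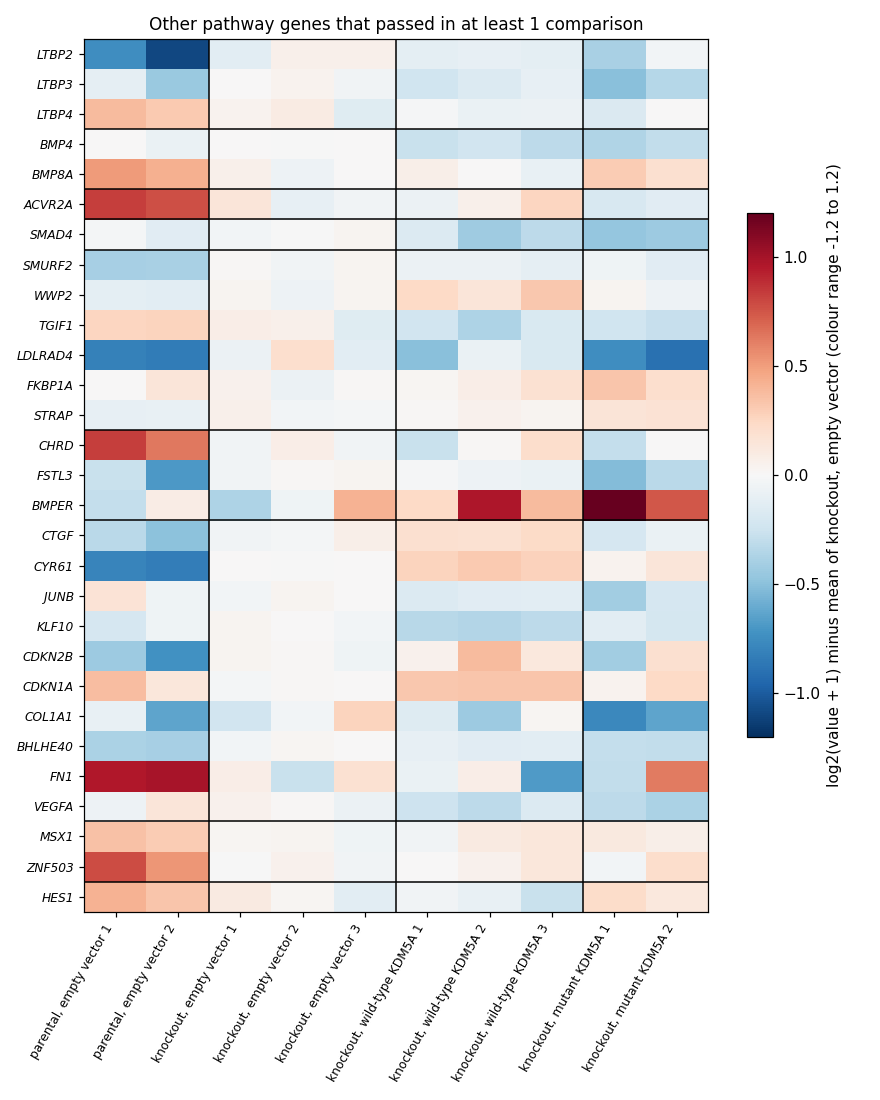
Other pathway genes that passed in at least 1 comparison (lines, grouped by list) in the 10 libraries (columns, grouped by group); colour is log2(scaled FPKM + 1) minus the mean of the empty-vector knockout libraries, from -1.2 (blue) to 1.2 (red). ACVR2A is dark red and CYR61 dark blue in both parental libraries.

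Among the 10 genes, ID1 and ID3 had the closest patterns over the 10 libraries (Pearson r = 0.97 on the log2 scale), followed by PMEPA1 and SKIL (0.911), while SMAD6 and SKI went most in opposite directions (-0.847). ID2 followed ID1 at 0.84 and ID3 at 0.807, and SMAD7 followed TGFBR2 at 0.825. These values describe 10 libraries that fall into 4 groups and carry no test. Among 11598 genes with a mean of at least 5 scaled FPKM, those most like ID1 were IER5L (0.992), CAPRIN2 (0.991) and TSC22D1 (0.99). IER5L, for example, was at 156 ± 7.03 (n = 2) in parental cells, 104 ± 1.66 (n = 3) in empty-vector knockout cells and 74.8 ± 3.41 (n = 3) with wild-type KDM5A. Those most like SMAD7 were PPP6R3 (0.974), POLK (0.945) and NIPBL (0.942), and those most like PMEPA1 were WDR33 (0.941), SRSF4 (0.941) and ZC3HC1 (0.933). ZC3HC1 was at 28.1 ± 2.73 (n = 3) with empty vector, 18.7 ± 0.442 (n = 3) with wild-type KDM5A, 21.2 ± 2.57 (n = 2) with mutant KDM5A and 20.4 ± 0.268 (n = 2) in parental cells.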

How the data were processed

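RNA was measured in 10 libraries of sorted HCT116 cells. The authors deposited 1 table per library, with log2 FPKM values per locus, per the file headers. Their linear values minus 1 summed to 999975 to 1000008 in each library, so the deposited log2 values hold a pseudocount of 1 and a common total, and reads and depth are unknown. The submitters' processing notes name the build GRCh38 and the tools Cufflinks 2.2.1, GATK 4.1.2, Picard and STAR 2.7.1a, and the order of steps, the annotation and the strand setting are not given in the sources used here. Per the labels, each library was run on a NovaSeq or a HiSeq instrument, and which one is not stated.

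Values were brought to the linear scale, summed per symbol and divided by a scaling factor per library (0.8438 to 1.1088, the median ratio over 13651 genes at 1 or more in every library). Genes at 1 or more in at least 2 libraries were kept, 17779 in all. limma 3.58.1 (R 4.3.3) with a mean-variance trend was fitted to log2(scaled value + 1) over all 10 libraries in 4 groups, with 6 residual degrees of freedom and 2.99 prior ones. Tables used Python 3.11.15, numpy 2.4.6 and pandas 2.3.3, and figures matplotlib 3.10.9. The test was tried on simulated data of 17779 genes, with changes given only to genes above a low mean level, in normally distributed noise. For wild-type KDM5A against empty vector it recovered 46.8% of genes given a log2 change of 0.5, 85.7% at 1 and 97.1% at 2, with 14 false calls. For mutant KDM5A against empty vector these were 37.1%, 79.2% and 98.3%, with 8 false calls. For mutant against wild-type KDM5A they were 40%, 85.7% and 95.8%, with 6 false calls. Coordinates are those of the files with 1 added to the start, since the files count from 0.

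Named genes were the 10 members, in each pathway list those that passed in at least 1 comparison, KDM5A, and the 3 genes most correlated with PMEPA1, SMAD7 and ID1. Part of 2 lists is not reported here. The members and lists were chosen with earlier results of these data known. Alternatives were other scaling (none, quantile), a pseudocount of 0.1, no filter, a mean of at least 5, a replicate block, a correction for exonic length (97.6% of genes matched), the ribosomal protein share (88 genes) as covariate, only the libraries compared, and each library left out.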

Additional observations from a re-analysis of the deposited data

How the results depend on the processing

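Over all alternatives without a left-out library, 386 of 455 refits of the 10 genes kept their direction and side of the threshold, 44 lost the call, 4 gained it and 21 changed sign; with 1 library left out these were 190, 55, 1 and 14 of 260. Among calls, ID1 (4), ID2 (2) and ID3 (2 against parental cells) passed whichever library was left out. Depth is unknown, and groups of 2 or 3 limit the precision. The cause of the changes below was not tested.

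Members called, against 5 (wild-type against empty vector), 6 (mutant against empty vector), 0 (mutant against wild-type), 6 (parental against knockout) and 5 (wild-type against parental) in the report, came to 1 to 3, 2 to 4, 0 to 0, 4 to 4 and 3 to 5 with 1 library left out. Where they moved by more than 1.5 times, wild-type against empty vector had 2 without a filter; mutant against empty vector had 3 without a filter and 0 with the ribosomal covariate; mutant against wild-type had 1 as deposited (SKI); parental against knockout had 2 with the covariate; and wild-type against parental had 3 with the covariate or only the libraries compared. Without a filter the calls lost were PMEPA1, SKIL and ID3 (wild-type), PMEPA1, SKIL and TGFBR2 (mutant), SMAD7 and SKIL (parental against knockout) and SMAD6 (wild-type against parental). With only the libraries compared they were PMEPA1 (mutant), SKIL and TGFBR2 (parental against knockout) and SKI and SMAD6 (wild-type against parental). PMEPA1 has no value under a mean of at least 5.

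Between empty-vector and wild-type libraries the deviations of the same replicate number correlated at -0.103, -0.11 and 0.0138. Over all pairs of groups the values for the same number ran from -0.217 to 0.125. Deviations within a group of 2 or 3 libraries sum to 0, so these values cannot decide whether libraries of the same number share a culture or batch. With the replicate block the members called were 1, 2, 0, 3 and 3 in the order above, and all genes called were 214, 1109, 1, 556 and 1370.

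All genes called (807, 2939, 10, 1589 and 2586) were 178 to 311, 1215 to 2644, 5 to 49, 685 to 1901 and 1433 to 2552 with 1 library left out. Without a filter they were 439, 1421, 75, 885 and 1464, and with only the libraries compared 1689, 1838, 214, 464 and 1653. Wild-type against empty vector gave 1690 without the mutant libraries and parental library 2. With the covariate, mutant against empty vector gave 15, mutant against wild-type 1, parental against knockout 96 and wild-type against parental 624. Mutant against wild-type gave 6 with quantile normalization and 3 at a mean of at least 5.

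As deposited, the median of all genes was -0.30 (mutant against empty vector), -0.20 (mutant against wild-type) and -0.10 (wild-type against empty vector). Mutant against empty vector then gave 6608 calls, 458 higher and 6150 lower (report: 1685 and 1254); mutant against wild-type 1490, 107 higher and 1383 lower (6 and 4). Wild-type against empty vector gave 123 higher and 613 lower (448 and 359), parental against knockout 372 and 971 (728 and 861) and wild-type against parental 791 and 1013 (1427 and 1159). Quantile normalization gave 887 higher and 1223 lower for mutant against empty vector and 5 and 1 for mutant against wild-type.

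Signs changed in values that had not passed, except FKBP1A and STRAP. As deposited, mutant against empty vector was -0.25 for ID2, -0.31 for SKI (adjusted p = 0.0313), -0.075 for FKBP1A and -0.17 for STRAP; mutant against wild-type was -0.18 for ID1, -0.18 for ID2 and -0.16 for SKIL; wild-type against empty vector was -0.069 for ID2 and -0.10 for TGFBR1. After quantile normalization, ID2 was -0.024 for mutant against wild-type, and against empty vector -0.032 for the mutant and -0.0084 for the wild-type, ID1 -0.12 for mutant against wild-type, SKIL 0.017 for wild-type against parental, FKBP1A -0.060 and STRAP -0.080 for mutant against empty vector. With the length correction, mutant against wild-type was -0.061 for ID1 and -0.021 for ID2, and with the replicate block -0.0058 for ID2. With the ribosomal covariate, mutant against wild-type was -0.019 for ID1, 0.079 for ID3, -0.26 for SKIL and 0.19 for TGFBR2, parental against knockout 0.087 for SKI and wild-type against parental 0.20 for SKIL. With 1 library left out, mutant against wild-type spanned -0.014 to 0.10 for ID2, -0.20 to 0.00022 for ID3 and -0.0019 to 0.15 for SKIL; wild-type against empty vector -0.0040 to 0.10 for ID2 and -0.066 to 0.11 for TGFBR1; SKI -0.011 to 0.043 for mutant against empty vector and -0.092 to 0.034 for parental against knockout; SKIL -0.19 to 0.16 for wild-type against parental.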
